A study of Homo sapiens with 15 samples.

Results

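The genes described here are 10 immediate early genes and close relatives: the AP-1 transcription factor genes FOS, FOSB, JUN and JUNB, the zinc finger transcription factor genes EGR1, KLF2 and KLF6, the nuclear protein gene IER2, and the phosphatase genes DUSP2 and DUSP6. They were chosen by name, with earlier results of these data known. The shares of members called below are therefore a description, not separate support for a response of the gene class. Every non-control probe set annotated to one of these genes alone was taken. This gave 22 probe sets out of 54613 on the array, and 10 genes out of the 19775 that have a probe set of their own. Of these, 18 probe sets of 9 genes passed the filter on low values and were tested. The other 4 were the only probe set of FOSB (202768_at), both low probe sets of JUN (201466_s_at and 213281_at) and 1 of KLF2 (226646_at), each at or below its array's median on all 15 arrays.

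The cells were THP-1, an established human line from an acute monocytic leukaemia that is used as a stand-in for monocytes. One group of 3 arrays came from untreated cells at 0 h. The other groups, also of 3 arrays each, came from cells given infliximab for 6 h, infliximab for 24 h, CDP870 for 6 h or CDP870 for 24 h. Both agents are antibody-based binders of tumour necrosis factor: infliximab is a whole IgG1 antibody, and CDP870, or certolizumab pegol, carries polyethylene glycol on a single Fab' arm and has no Fc part. The sources used here name no dose. No untreated cells at 6 or 24 h are among the arrays, so in each comparison with 0 h the agent and the time in culture cannot be told apart. The comparison of the 2 agents at the same time does not have that limit. All groups are of 1 cell line, and in bulk RNA a change in the share of responding cells cannot be told apart from a change in RNA per cell.

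Immediate early genes are transcribed without new protein synthesis when a cell meets a growth factor, a cytokine or stress, mainly through the ERK, p38 and JNK kinases acting on factors such as SRF, ELK1, CREB and MEF2 already present at their promoters. Their transcripts usually peak soon after the stimulus and decay within hours, and their protein products then switch on later genes. In monocytes they are known for accompanying adhesion, cytokine release and differentiation. The dual specificity phosphatases remove the activating phosphates from the same kinases and are themselves induced by them, which closes a feedback loop.

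The promoters of 7 members are shown, picked with their results known: KLF2, EGR1, IER2, FOS and DUSP6 were higher with infliximab on at least 1 probe set, DUSP2 was lower, and JUN passed no test. Those of KLF6, which was also higher on at least 1 probe set, and of JUNB and FOSB are not shown. Any link between promoter letters and these results was not tested. All 10 members were matched by symbol in RefSeq's promoter table (GRCh38.p14). The 250 bases before each annotated start are printed 5′ to 3′ along the gene. They lie at chr19:16324576-16324825 (plus strand) for KLF2, chr5:138465229-138465478 (plus) for EGR1, chr19:13150161-13150410 (plus) for IER2, chr14:75278578-75278827 (plus) for FOS, chr12:89352502-89352751 (minus) for DUSP6, chr2:96145441-96145690 (minus) for DUSP2 and chr1:58784048-58784297 (minus) for JUN. Capitals mark matches on either strand to the CArG box that SRF reads, the MEF2 core CTANNNNTAG, the CRE half-site TGACG, the TATA element TATAAA and the EGR core GCGNGGGCG.
KLF2: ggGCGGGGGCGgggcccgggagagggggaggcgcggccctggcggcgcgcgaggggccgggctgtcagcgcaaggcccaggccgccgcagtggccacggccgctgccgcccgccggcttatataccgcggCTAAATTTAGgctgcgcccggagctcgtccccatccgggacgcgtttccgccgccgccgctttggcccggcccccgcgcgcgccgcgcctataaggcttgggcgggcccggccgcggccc
EGR1: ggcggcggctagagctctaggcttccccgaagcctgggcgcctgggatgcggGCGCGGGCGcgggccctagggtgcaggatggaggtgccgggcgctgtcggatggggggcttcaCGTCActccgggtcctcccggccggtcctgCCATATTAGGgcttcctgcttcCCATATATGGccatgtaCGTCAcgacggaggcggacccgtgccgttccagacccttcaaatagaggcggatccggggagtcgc
IER2: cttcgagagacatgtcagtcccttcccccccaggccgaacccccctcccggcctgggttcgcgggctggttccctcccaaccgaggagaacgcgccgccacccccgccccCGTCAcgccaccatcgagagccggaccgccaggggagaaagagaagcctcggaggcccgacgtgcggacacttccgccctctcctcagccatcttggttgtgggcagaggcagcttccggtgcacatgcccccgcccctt
FOS: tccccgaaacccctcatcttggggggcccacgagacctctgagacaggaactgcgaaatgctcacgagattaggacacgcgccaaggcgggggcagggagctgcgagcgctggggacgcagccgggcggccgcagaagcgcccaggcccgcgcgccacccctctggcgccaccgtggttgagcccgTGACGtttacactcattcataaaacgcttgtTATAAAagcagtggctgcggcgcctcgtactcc
DUSP6: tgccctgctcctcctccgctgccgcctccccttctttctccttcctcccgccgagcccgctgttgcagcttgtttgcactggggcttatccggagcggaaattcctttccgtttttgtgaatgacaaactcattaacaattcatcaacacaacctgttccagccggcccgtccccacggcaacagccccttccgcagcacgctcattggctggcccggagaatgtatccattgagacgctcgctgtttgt
DUSP2: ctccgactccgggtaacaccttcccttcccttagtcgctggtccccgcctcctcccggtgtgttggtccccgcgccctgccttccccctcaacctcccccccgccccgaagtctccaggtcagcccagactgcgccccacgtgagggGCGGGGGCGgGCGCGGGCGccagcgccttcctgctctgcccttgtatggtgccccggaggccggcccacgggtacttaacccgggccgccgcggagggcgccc
JUN: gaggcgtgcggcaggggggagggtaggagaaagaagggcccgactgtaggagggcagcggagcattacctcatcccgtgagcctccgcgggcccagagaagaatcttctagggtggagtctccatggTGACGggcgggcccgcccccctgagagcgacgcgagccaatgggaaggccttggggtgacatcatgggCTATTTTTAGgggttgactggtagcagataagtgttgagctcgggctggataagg

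Matches were searched on both strands from 250 bases before to 50 after the start of 35116 promoters, and they describe letters, not bound sites. The EGR1 promoter held 2 CArG boxes, starting 105 and 83 bases before its start, an element found in 1.29% of all promoters and in no other member. KLF2 and JUN each held a MEF2 core, at 120 and 55 bases before the start (2.73% of promoters). The half-site TGACG stood in 6 members (JUN, EGR1, FOS, JUNB, IER2 and FOSB) and in 24.6% of promoters, and TATAAA in 3 (FOS, JUNB and FOSB) and in 11.5%. The EGR core stood in DUSP2, EGR1, KLF6 and KLF2 (9.43% of promoters), and in DUSP2, KLF6 and KLF2 it overlapped the letters GGGCGG, which 7 members and 45.0% of promoters held. No member matched the full CRE TGACGTCA (1.85% of promoters), the AP-1 site TGANTCA (7.71%) or the composite TGATGNAA (3.62%). The printed stretch of DUSP6 has no capitals, and its 300-base window was the least GC-rich of the 10 (58.3%, against 80.7% for KLF2).

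The deposited log2 values had array medians between 2.93 and 3.07. The zero of the scale is not known, so levels of different probe sets are not compared, and a fold is 2 to the power of a log2 difference. Of the 8 monocytic markers on the array with a single-gene probe set, 7 (LYZ, ITGAM, CSF1R, MPO, SPI1, FCGR2A and ELANE) lay above the median on all arrays. The same held for 3 of 4 B cell, 2 of 4 NK cell and 2 of 5 T cell markers. It also held for 1 of 2 erythroid, 1 of 5 fibroblast and 0 of 4 endothelial markers. Lying above the median therefore does not identify a cell type. Of 7 epithelial markers 6 also lay above it on all arrays, with CDH1 below on all. Their summed linear level was 657 to 781 in untreated cells, 917 to 1130 and 1000 to 1110 with infliximab at 6 and 24 h, and 484 to 562 and 517 to 584 with CDP870. The part of that difference in the results below was not tested. Some arrays stood apart. Control replicate 3 had an array weight of 0.29 and CDP870 24 h replicate 13 one of 0.52. The 3 infliximab 24 h arrays had weights of 0.36 to 0.71 and correlated least with their own group (0.9736 to 0.9788, against at least 0.9846 elsewhere). The mean hybridisation spike-in value was 7.71 to 7.78 after infliximab for 6 h against 7.23 to 7.46 in untreated cells, with CDP870 24 h replicates 11 and 12 also at 7.72 and 7.71. The 3′ minus 5′ difference, a sign of RNA quality, was 0.27 for ACTB and 0.24 for GAPDH on infliximab 24 h replicate 6, against at most 0.03 and 0.02 on the other arrays. The part of these measures in the results was not tested beyond the omissions and the covariate given with them.

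Infliximab for 6 h was accompanied by higher KLF2, DUSP6, EGR1 and FOS and by lower DUSP2. KLF2 showed the largest rise among the members, and both AP-1 partners of FOS that could be tested, JUN and JUNB, did not pass. Of the 18 probe sets 7 were called at a limma adjusted p under 0.05, 6 higher and 1 lower, where 8.42% of all tested probe sets were called (4.02% higher and 4.4% lower). The median difference over the 18 was 0.32, against -0.04 over all tested probe sets. Values above every control array were seen for 10 of the 18 (12.4% of all tested) and values below every control array for 1 (17.1%). These 7 calls were lost with the spike-in level as a covariate, under which KLF2 kept its size (0.859, adjusted p = 0.0632). The spike-in values of infliximab 6 h (7.71 to 7.78) and control arrays (7.23 to 7.46) did not overlap, so group and covariate can hardly be told apart. Calls over all tested probe sets went from 2432 to 181 with it. Of the 7 member calls 3 held with each of the 15 arrays left out in turn.

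After 24 h of infliximab the same direction was seen, with IER2 and KLF6 now past the test as well. EGR1 was 2.02-fold and KLF2 1.95-fold above untreated cells, DUSP6, KLF6 and IER2 were higher by smaller amounts, DUSP2 was lower, and FOS did not pass. Of the 18 probe sets 9 were called, 8 higher and 1 lower, against 6.57% of all tested (3.78% higher and 2.79% lower). In that comparison 1092 of all tested probe sets rose and 807 fell, or 1333 and 522 with arrays centred on their medians. The member median was 0.44 against -0.02 over all tested, and 10 of the 18 lay above every control array (8.67% of all tested) and 1 below (10.5%). A fit of only the 6 arrays compared kept 1 of the 9 calls, that of KLF2. Leaving out control replicate 3 and infliximab 24 h replicates 5 and 6 together leaves only replicate 7 in the infliximab 24 h group. Differences at 24 h from that fit are therefore values of that array, and they are given below without p.

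CDP870 was accompanied by no called member at either time, where 0% of all tested probe sets were called as well. Member differences from untreated cells ran from -0.25 to 0.15 at 6 h (median -0.08, against -0.01 over all tested) and from -0.31 to 0.28 at 24 h (median -0.11, against -0.03). At an unadjusted p under 0.05 there were 1 member probe set at 6 h (IER2) and 2 at 24 h (IER2 and KLF6 208961_s_at), among 1352 and 1359 of all tested, and no other tool was run. With CDP870, 2 member probe sets lay below every control array at each time (6.05% and 7% of all tested) and 0 above (3.99% and 2.26%).

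**Figure D1:**
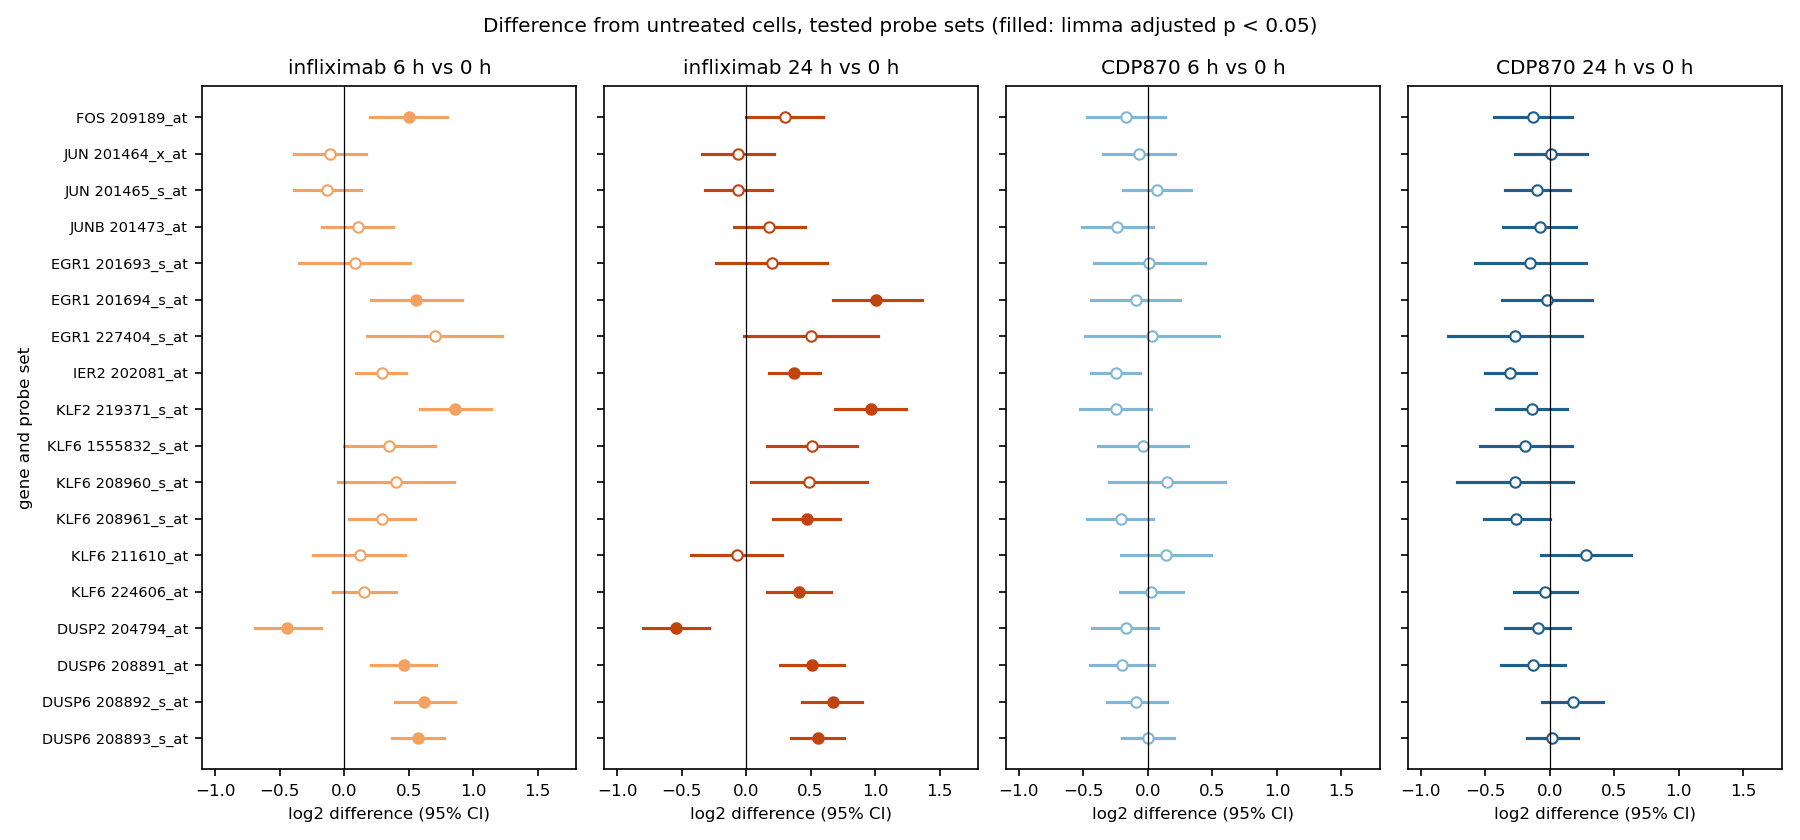
Log2 difference from untreated cells (x axis) for the 18 tested probe sets (y axis) in 4 panels, infliximab and CDP870 at 6 and 24 h, with 95% confidence intervals of the limma fit as bars. Filled points passed an adjusted p under 0.05: 7 at 6 h and 9 at 24 h of infliximab, and 0 with CDP870.

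Set directly against each other, the 2 agents differed in most members. At 6 h KLF2 was 2.17-fold, FOS 1.59-fold, DUSP6 1.58-fold, EGR1 1.57-fold and IER2 1.45-fold higher with infliximab, and KLF6 was higher on 1 of its 5 tested probe sets. Of 18 probe sets 8 were called, all higher with infliximab, against 9.07% of all tested (5.1% higher and 3.98% lower), with a median of 0.45 against -0.03. At 24 h 11 of 18 were called, 10 higher and 1 lower (DUSP2), against 6.51% of all tested (4.73% higher and 1.79% lower), with a median of 0.51 against 0. Each array in one group lay above each in the other for 9 of 18 probe sets at 6 h (17.4% of all tested) and 12 at 24 h (11.6%), and the reverse was seen for 1 at 6 h (20.4%) and 2 at 24 h (8.87%). These comparisons and those with 0 h use the same infliximab arrays, so they are not separate support for one another. The fit of only the arrays compared kept all 8 calls at 6 h and 4 of 11 at 24 h. Those 4 were KLF2, EGR1, IER2 and KLF6 208961_s_at. With the spike-in level as a covariate 5 of the 8 calls at 6 h and 10 of the 11 at 24 h were kept.

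Neither agent gave a called member between its 2 times, where 0% of all tested probe sets were called, nor did the interaction of agent and time. With infliximab the member differences between 24 and 6 h ran from -0.21 to 0.45 (lowest adjusted p = 0.325), with 2 at an unadjusted p under 0.05 (EGR1 201694_s_at and KLF6 224606_at) among 3437 of all tested. With CDP870 they ran from -0.43 to 0.26 (lowest adjusted p = 0.996), with 1 at that level (DUSP6 208892_s_at) among 1437. Values at 24 h lay wholly above those at 6 h for 2 member probe sets with infliximab (5.67% of all tested) and 1 with CDP870 (4.32%), and wholly below for 1 in each case (4.95% and 7.84%). The interaction ran from -0.33 to 0.51 (lowest adjusted p = 0.576), with 0 members at that level among 2642 of all tested. Without infliximab 24 h replicate 7, EGR1 201694_s_at (0.61, adjusted p = 0.032) and KLF6 224606_at (0.38, adjusted p = 0.0461) were called higher at 24 than at 6 h. In that fit 2462 of the 28897 tested probe sets were called between these times, 1831 higher and 631 lower. Of the infliximab 24 h arrays left, replicate 5 had an array weight of 0.36. Replicate 6 had 3′ minus 5′ differences of 0.27 (ACTB) and 0.24 (GAPDH). The part of these measures in the 2 calls was not tested.

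**Figure D2:**
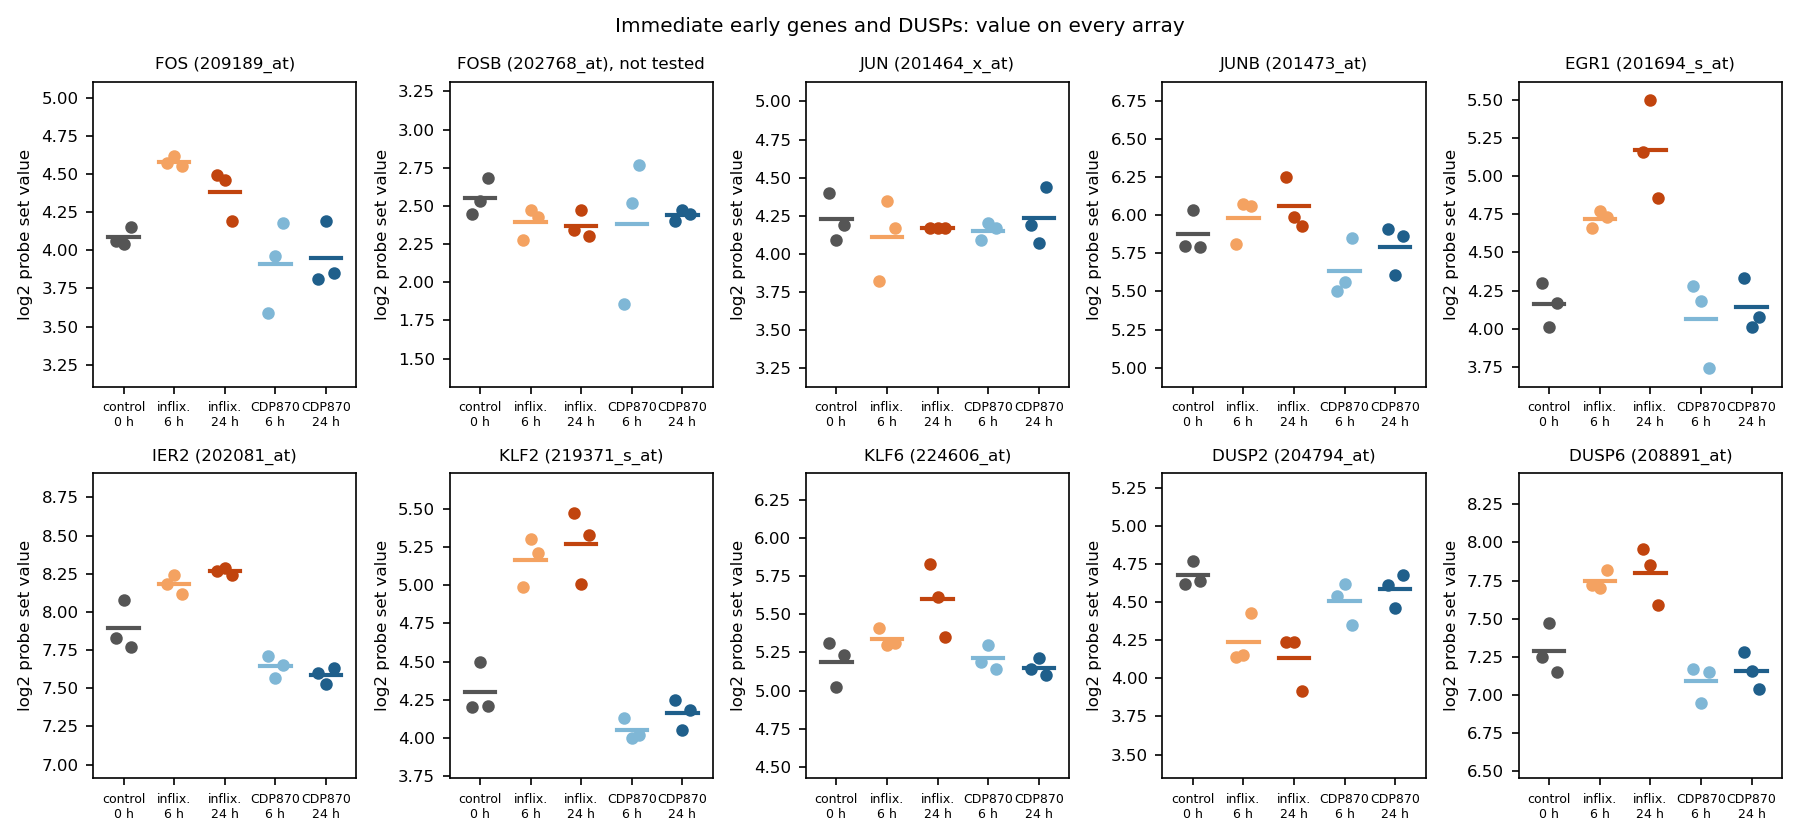
Deposited log2 value (y axis) on each of the 15 arrays for 1 probe set per member, by group (x axis), with points for arrays and bars for the means of 3. Axis ranges differ between panels; KLF2, EGR1, IER2 and DUSP6 have all 6 infliximab points above all 9 others, and JUN and FOSB have overlapping groups.

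FOS, the partner that gives AP-1 dimers with JUN proteins their transactivating strength, was higher with infliximab at 6 h. Its only probe set (209189_at) read 4.04, 4.06 and 4.15 in untreated cells, 4.55, 4.57 and 4.62 after infliximab for 6 h, 4.19, 4.46 and 4.49 after 24 h, 3.59, 3.96 and 4.18 after CDP870 for 6 h, and 3.81, 3.85 and 4.19 after 24 h. The 6 h infliximab arrays lay above all other arrays, and the 24 h ones lay between these and the controls, with the lowest of them equal to the highest CDP870 array. FOS rose by 0.5 ± 0.14 (SE, n = 3 and 3) at 6 h, 1.41-fold (limma adjusted p = 0.0419), and its difference at 24 h was 0.3 (adjusted p = 0.249). The difference between the infliximab times did not pass (-0.2, -0.5 to 0.1, adjusted p = 0.605). Against CDP870 it was higher by 0.67 at 6 h (adjusted p = 0.00906), and the difference at 24 h was 0.43 (adjusted p = 0.0888). The call against 0 h held in 7 of the 15 omissions of 1 array. It was lost without any control or infliximab 6 h array, CDP870 6 h replicate 15 or CDP870 24 h replicate 11 (differences of 0.48 to 0.53, adjusted p up to 0.124). The call against CDP870 held in all 15.

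FOSB, a FOS relative with a similar role, was low throughout: 202768_at ranged from 1.86 to 2.77 over the 15 arrays, below the array medians, and its 5 group means lay between 2.37 and 2.55 with overlapping ranges. It was not tested. Such values bound the gene's signal on this array and do not show that it is absent.

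JUN, which can pair with FOS proteins or with itself, did not pass in any comparison. The better-measured probe set 201464_x_at read 4.09, 4.19 and 4.4 in untreated cells, 3.82, 4.17 and 4.35 after infliximab for 6 h, 4.17 on all 3 arrays after 24 h, 4.09, 4.17 and 4.2 after CDP870 for 6 h, and 4.07, 4.19 and 4.44 after 24 h. All 5 groups overlapped. Its infliximab differences were -0.11 at 6 h (95% confidence interval -0.39 to 0.17) and -0.06 at 24 h (-0.34 to 0.22), with adjusted p of 0.651 and 0.85. The second tested probe set, 201465_s_at, differed by -0.13 (-0.39 to 0.13) and -0.06 (-0.32 to 0.2). These intervals do not contain the rise of FOS at 6 h, though the difference between the 2 genes was not tested. The low probe sets 201466_s_at and 213281_at stayed between 1.26 and 1.75.

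JUNB, a JUN relative that is a weaker activator and can temper JUN, was intermediate. It (201473_at) read 5.79, 5.8 and 6.03 in untreated cells, 5.81, 6.06 and 6.07 and then 5.93, 5.99 and 6.25 with infliximab at 6 and 24 h, and 5.5, 5.56 and 5.85 and then 5.61, 5.86 and 5.91 with CDP870. The infliximab 24 h arrays lay above the CDP870 24 h arrays. Groups next to each other in the order of means overlapped. Its infliximab differences from 0 h were 0.11 (-0.17 to 0.38) and 0.18 (-0.09 to 0.46), and those from CDP870 0.34 at 6 h (adjusted p = 0.114) and 0.26 at 24 h (adjusted p = 0.279), so no comparison passed.

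EGR1, a zinc finger factor that is among the most sensitive transcriptional readouts of ERK signalling and drives monocytic differentiation genes, rose with infliximab on 1 of its 3 probe sets. On 201694_s_at untreated cells read 4.01, 4.17 and 4.3, infliximab gave 4.66, 4.73 and 4.77 at 6 h and 4.86, 5.16 and 5.5 at 24 h, and CDP870 gave 3.74, 4.18 and 4.28 at 6 h and 4.01, 4.08 and 4.33 at 24 h. Control, infliximab 6 h and infliximab 24 h formed 3 ranges that did not overlap, in that order, and the CDP870 ranges overlapped the controls. The rise was 0.56 ± 0.16 (SE) at 6 h, 1.47-fold (limma adjusted p = 0.0468), and 1.01 ± 0.16 at 24 h, 2.02-fold (adjusted p = 0.00211). Against CDP870 it was 1.57-fold at 6 h (adjusted p = 0.022) and 2.05-fold at 24 h (adjusted p = 0.00149). Between the times the difference was 0.45 (0.11 to 0.8), with an adjusted p of 0.325. It was 0.14 without control replicate 3 and infliximab 24 h replicates 5 and 6, where only replicate 7 is left in the infliximab 24 h group.

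The other EGR1 probe sets were less clear. On 227404_s_at the values were 3.62, 4.12 and 4.12 in untreated cells, 4.25, 4.65 and 5.07 and then 4.12, 4.48 and 4.75 with infliximab, and 3.9, 3.98 and 4.08 and then 3.15, 3.83 and 4.08 with CDP870. Its differences were of similar size at 6 h (0.7, adjusted p = 0.0901) and smaller at 24 h (0.5, adjusted p = 0.264), and none passed, so the order of 24 h above 6 h was seen on 201694_s_at and not on this probe set (-0.21 between the times). The third, 201693_s_at, lay near the array medians (2.83 to 3.94) with differences of 0.06 to 0.35 and no call. The 6 h call of 201694_s_at against 0 h held in 4 of 15 omissions and was lost without any control, infliximab 6 h or CDP870 24 h array or CDP870 6 h replicate 14 or 15 (differences of 0.48 to 0.63, adjusted p up to 0.155). The 24 h call held in all 15. However, in the fit of only the arrays compared its adjusted p was 0.0555. Without control replicate 3 and infliximab 24 h replicates 5 and 6 together, with only replicate 7 left in the infliximab 24 h group, the difference was 0.625. Against CDP870 at 6 h the call was lost without infliximab 6 h replicate 8, 9 or 10 or CDP870 6 h replicate 16 (differences of 0.49 to 0.76, adjusted p up to 0.111). That call was also lost with the spike-in level as a covariate (0.784, adjusted p = 0.0513).

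IER2 is a small nuclear protein of the immediate early class whose biochemical role is less well understood. Its values with infliximab, without treatment and with CDP870 formed 3 ranges that did not overlap. Of its differences from 0 h only that of infliximab at 24 h passed the test. Its only probe set (202081_at) read 7.77, 7.83 and 8.08 in untreated cells, 8.12, 8.18 and 8.24 after infliximab for 6 h, 8.24, 8.27 and 8.29 after 24 h, 7.57, 7.65 and 7.71 after CDP870 for 6 h, and 7.53, 7.6 and 7.63 after 24 h. Every infliximab array lay above every control array and every CDP870 array below every control array. The infliximab difference from 0 h was 0.29 ± 0.09 (SE) at 6 h (limma adjusted p = 0.0665) and 0.37 ± 0.09 at 24 h (adjusted p = 0.0243), and only the latter passed. The CDP870 differences were -0.25 (-0.44 to -0.06) and -0.31 (-0.5 to -0.11), with adjusted p of 0.99 and 0.974. Between the agents IER2 was higher by 0.54 (1.45-fold, adjusted p = 0.00248) at 6 h and by 0.68 (1.6-fold, adjusted p = 0.000392) at 24 h, calls that held in all 15 omissions. The 24 h call against 0 h was lost without control replicate 2 or 4 or infliximab 24 h replicate 5 or 6 (differences of 0.31 to 0.47, adjusted p up to 0.0932) and with the spike-in covariate (0.0517). Without control replicate 3 and infliximab 24 h replicates 5 and 6 together the 6 h difference was 0.38 and the 24 h one 0.44. The latter sets infliximab 24 h replicate 7 alone against the controls kept.

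KLF2, a zinc finger factor known for keeping monocytes, T cells and endothelium in a quiescent state, had the smallest adjusted p of the 10 in each of the 4 comparisons of infliximab with 0 h or CDP870. On 219371_s_at untreated cells read 4.2, 4.21 and 4.5, infliximab gave 4.99, 5.21 and 5.3 at 6 h and 5.01, 5.33 and 5.47 at 24 h, and CDP870 gave 4, 4.02 and 4.13 at 6 h and 4.05, 4.18 and 4.25 at 24 h. The lowest of the 6 infliximab arrays (4.99) was above the highest of the other 9 (4.5), and the 2 infliximab times overlapped. KLF2 rose by 0.86 ± 0.13 (SE, 1.82-fold, limma adjusted p = 0.00106) at 6 h and by 0.97 ± 0.13 (1.95-fold, adjusted p = 0.000402) at 24 h. Against CDP870 it was higher by 1.12 (2.17-fold, adjusted p = 0.000108) and 1.11 (2.16-fold, adjusted p = 0.0001). The calls held in all 15 omissions in these 4 comparisons and in the fits of only the arrays compared. With the spike-in level as a covariate the 6 h call against 0 h was lost (0.859, adjusted p = 0.0632). After CDP870 for 6 h the 3 arrays lay below the controls, with a difference of -0.25 (-0.53 to 0.02, adjusted p = 0.997), and at 24 h the difference was -0.14 (-0.42 to 0.13, adjusted p = 0.974). The second KLF2 probe set, 226646_at, lay at 1.72 to 2.19 and was not tested, so the response rests on 1 probe set.

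KLF6, a relative that in macrophages takes part in inflammatory gene expression, rose less and unevenly over its 5 tested probe sets. The best measured, 224606_at, read 5.02, 5.23 and 5.31 in untreated cells, 5.3, 5.31 and 5.41 and then 5.35, 5.61 and 5.83 with infliximab, and 5.14, 5.19 and 5.3 and then 5.1, 5.14 and 5.21 with CDP870. Only the infliximab 24 h arrays lay above the controls. It rose by 0.41 ± 0.12 (SE) at 24 h (limma adjusted p = 0.0475), and its 6 h difference was 0.15 (adjusted p = 0.456). On 208961_s_at the values were 4.73, 4.85 and 5.14 in untreated cells, 5.07, 5.25 and 5.28 and then 5.29, 5.35 and 5.49 with infliximab, and 4.57, 4.66 and 4.85 and then 4.51, 4.68 and 4.76 with CDP870. This one was higher at 24 h against 0 h (0.47, adjusted p = 0.0298) and against CDP870 at 6 h (0.51, 1.42-fold, adjusted p = 0.017) and 24 h (0.73, 1.65-fold, adjusted p = 0.00213).

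Of the remaining KLF6 probe sets, 2 passed between the agents at 24 h and in no other comparison of a pair of groups, and 1 passed in none. There 1555832_s_at was higher by 0.7 ± 0.17 (SE, limma adjusted p = 0.0208) and 208960_s_at by 0.76 ± 0.21 (adjusted p = 0.0443), while 211610_at, above the array median on 4 of 15 arrays, differed by -0.35 (adjusted p = 0.251). So 4 of 5 tested KLF6 probe sets were called higher with infliximab than with CDP870 at 24 h, 1 of 5 at 6 h, 2 of 5 against 0 h at 24 h and 0 of 5 at 6 h. The calls were fragile: that of 224606_at against 0 h held in 1 of 15 omissions, the exception being infliximab 24 h replicate 7 (differences of 0.29 to 0.53, adjusted p up to 0.146). Without control replicate 3 and infliximab 24 h replicates 5 and 6 together, with only replicate 7 left in the infliximab 24 h group, that difference was 0.08. Those from CDP870 at 24 h in the same fit were 0.2 for 224606_at and 0.383 for 1555832_s_at. The call of 224606_at against CDP870 at 24 h held in 10 of 15 and was lost without infliximab 24 h replicate 5 or 6 or any CDP870 24 h array (adjusted p up to 0.113). That of 1555832_s_at against CDP870 was lost without infliximab 24 h replicate 5 or any CDP870 24 h array (adjusted p up to 0.0738). That of 208960_s_at held in 4 of 15 and was lost without control replicate 2 or 4, infliximab 6 h replicate 8 or 9, infliximab 24 h replicate 5 or 7, any CDP870 6 h array or CDP870 24 h replicate 12 or 13 (adjusted p up to 0.168), and with array weights its difference was 0.481 (adjusted p = 0.236). For 208961_s_at the call against CDP870 at 24 h held in all 15. The one at 6 h was lost without infliximab 6 h replicate 9 or 10 or CDP870 6 h replicate 14 or 16 (adjusted p up to 0.085), and the one against 0 h at 24 h without control replicate 2 or 4 or infliximab 24 h replicate 5 (adjusted p up to 0.12).

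DUSP6 (MKP-3), the cytoplasmic phosphatase that switches off ERK and is itself an ERK target, rose on all 3 of its probe sets. On 208891_at untreated cells read 7.15, 7.25 and 7.47, infliximab gave 7.7, 7.72 and 7.82 at 6 h and 7.59, 7.85 and 7.96 at 24 h, and CDP870 gave 6.95, 7.15 and 7.17 at 6 h and 7.04, 7.16 and 7.28 at 24 h. On 208892_s_at the infliximab arrays ran from 7.36 to 7.77 and the other 9 from 6.76 to 7.14, and on 208893_s_at from 7.24 to 7.46 against 6.65 to 6.92. All 6 infliximab arrays were above all 9 others on each probe set, and the 2 infliximab times overlapped. The rise at 6 h was 0.46 ± 0.12, 0.62 ± 0.11 and 0.57 ± 0.09 (SE) on 208891_at, 208892_s_at and 208893_s_at, with limma adjusted p of 0.0261, 0.00333 and 0.00235. At 24 h it was 0.51, 0.67 and 0.56 (adjusted p = 0.0173, 0.0023 and 0.00296).

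Against CDP870 the same probe sets of DUSP6 were higher by 0.66, 0.71 and 0.57 at 6 h (1.58-, 1.64- and 1.48-fold, limma adjusted p = 0.00328, 0.00121 and 0.00213) and by 0.64, 0.49 and 0.54 at 24 h (1.56-, 1.4- and 1.45-fold, adjusted p = 0.00412, 0.0141 and 0.00346). On 208893_s_at each of these 4 calls held in all 15 omissions. Against 0 h all 3 probe sets lost the 6 h call with the spike-in level as a covariate (adjusted p = 0.353, 0.0912 and 0.0723). They lost the 24 h call against 0 h in the fit of only the arrays compared (adjusted p = 0.2, 0.0976 and 0.129). On 208891_at the calls against 0 h held in 10 of 15 at 6 h and 11 of 15 at 24 h, and were lost without control replicate 2 or 4, any infliximab 6 h array, or infliximab 24 h replicate 5 or 6 (adjusted p up to 0.0924 and 0.07). The call of 208892_s_at against CDP870 at 24 h was lost without infliximab 24 h replicate 5 or CDP870 24 h replicate 13 (adjusted p up to 0.0624). Without control replicate 3 and infliximab 24 h replicates 5 and 6 together, only replicate 7 is left in the infliximab 24 h group. In that fit the difference of 208892_s_at from CDP870 at 24 h was 0.287 and that of 208891_at was 0.43. The 3 probe sets share 1 gene and the same arrays, so they are not 3 separate findings.

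DUSP2 (PAC-1), a nuclear phosphatase of ERK and p38 found in blood cells, went the other way from DUSP6. Its only probe set (204794_at) read 4.62, 4.64 and 4.77 in untreated cells, 4.14, 4.15 and 4.43 after infliximab for 6 h, 3.92, 4.24 and 4.24 after 24 h, 4.35, 4.54 and 4.62 after CDP870 for 6 h, and 4.46, 4.61 and 4.68 after 24 h. All infliximab arrays lay below all controls, though the highest of the 6 h arrays was above the lowest CDP870 6 h array. DUSP2 fell by 0.44 ± 0.12 (SE) at 6 h (limma adjusted p = 0.0336) and fell by 0.54 ± 0.12 at 24 h (adjusted p = 0.0132). It was lower than with CDP870 at 24 h by a log2 difference of -0.45 (adjusted p = 0.0341) but not past the test at 6 h (-0.26, adjusted p = 0.181). With the spike-in level as a covariate the 6 h difference was -0.266 (adjusted p = 0.55), and its adjusted p was 0.0513 in the fit of only the arrays compared. Without control replicate 3 and infliximab 24 h replicates 5 and 6 the 6 h difference was -0.39. The 6 h call was lost without any control array or infliximab 6 h replicate 8 or 9 (differences of -0.53 to -0.39, adjusted p up to 0.125). The 24 h call against 0 h held in all 15 omissions, and the one against CDP870 was lost without infliximab 24 h replicate 7 or CDP870 24 h replicate 11 or 13 (adjusted p up to 0.114).

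**Figure D3:**
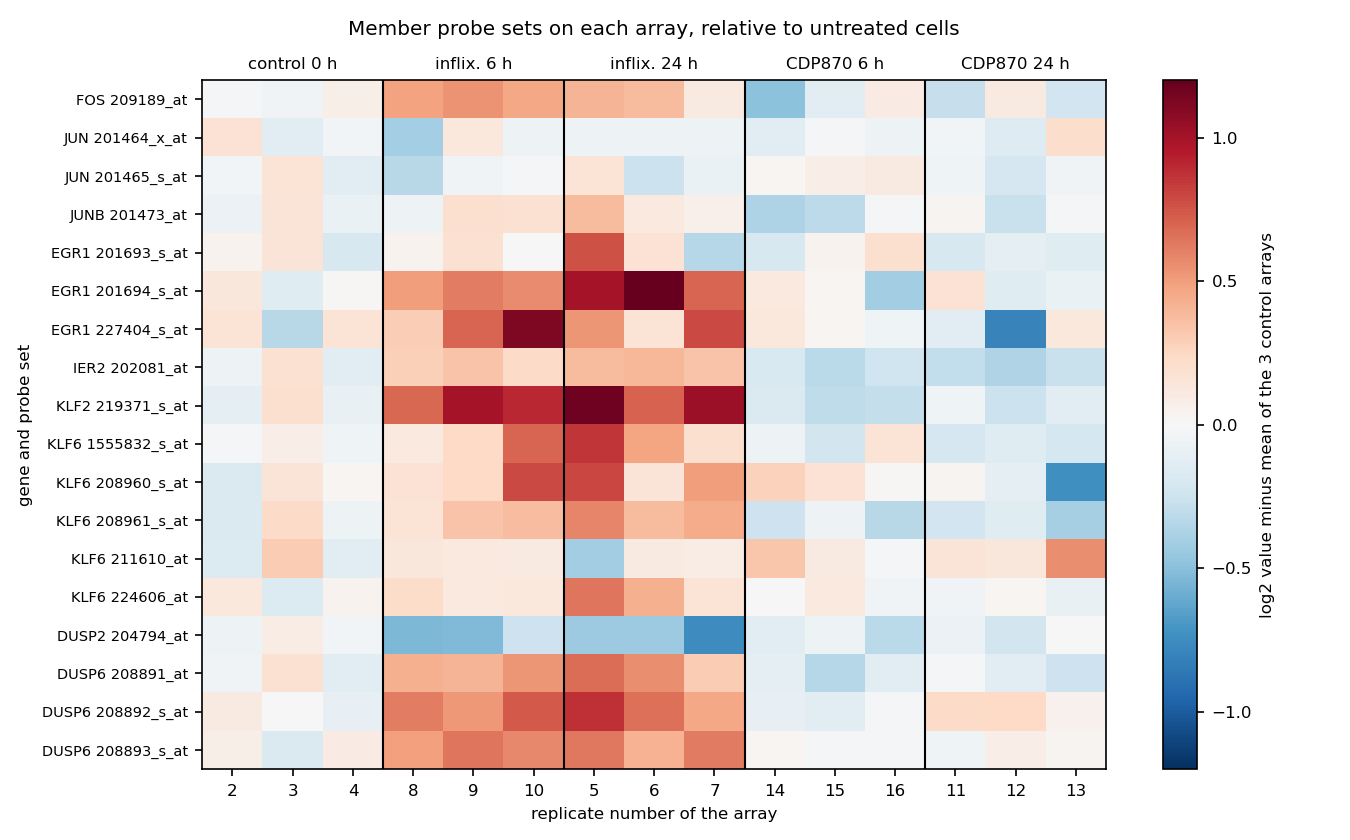
Log2 value minus the mean of the 3 control arrays (colour) for the 18 tested member probe sets (rows) on each of the 15 arrays (columns, by replicate number). The 6 infliximab columns are red for KLF2, EGR1 201694_s_at, IER2 and all 3 DUSP6 probe sets and blue for DUSP2.

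Across the 5 groups together, 10 of the 18 probe sets were called by the moderated F test, against 9.43% of all tested: FOS (adjusted p = 0.018), EGR1 201694_s_at (0.00127), IER2 (0.000428), KLF2 (2.22e-05), KLF6 208961_s_at (0.00294) and 1555832_s_at (0.0456), DUSP2 (0.0242) and all 3 of DUSP6 (0.00162, 0.000615 and 0.000613). All 6 infliximab arrays lay above the other 9 for 6 of 18 probe sets (EGR1 201694_s_at, IER2, KLF2 and the 3 of DUSP6), against 3.99% of all tested, and below them for 0 (2.78%). KLF2, EGR1 201694_s_at and the 3 DUSP6 probe sets were called higher in all 4 comparisons that involve infliximab and another group, which 1.93% of all tested probe sets were.

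The members that rose with infliximab were correlated over the arrays, and less so once the group means were removed. Over the 15 arrays the 15 pairs of FOS, EGR1, IER2, KLF2, KLF6 and DUSP6 correlated with a median Pearson r of 0.79 (0.6 to 0.94), and after each group's mean was removed the median was 0.08 (-0.43 to 0.54). Over all 36 pairs of the 9 tested members the medians were 0.6 (-0.75 to 0.94) and 0.17 (-0.43 to 0.62). These points share arrays and groups, so the values describe the grouping and carry no p. The single genes whose profile over the 15 arrays was most like that of a member were SYTL1, SERPINF1 and CAMLG for KLF2 (r of 0.99, 0.98 and 0.98), MANBA, INPP5B and SLC31A1 for EGR1 (0.97, 0.94 and 0.94), GALM, LINC01097 and RETREG1 for FOS (0.94, 0.91 and 0.89), WDR45, CHASERR and METRNL for DUSP6 (0.97 each) and UNK, POP7 and DCXR for DUSP2 (0.93, 0.92 and 0.92). For IER2 they were KRT5, KRT18 and CFD (0.97, 0.97 and 0.96), and KRT5 and KRT18 are among the 6 tested epithelial markers, among which 4 and 5 rose with infliximab at 6 and 24 h and 5 were higher than with CDP870 at each time. The part of those markers in the IER2 result was not tested.

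The surrounding pathway was read from 9 lists of related genes, in which 97 entries were tested and each gene stood for 1 probe set. FOSL1 and IER3 stand in 2 lists each, which leaves 95 genes. Of these 10 rose and 3 fell with infliximab at 6 h and 15 rose and 0 fell at 24 h, and 14 were higher and 1 lower than with CDP870 at 6 h and 19 and 0 at 24 h. The shares that rose were 10.5%, 15.8%, 14.7% and 20%, where 4.02%, 3.78%, 5.1% and 4.73% of all tested probe sets were higher. Lower in the same comparisons were 4.4%, 2.79%, 3.98% and 1.79% of all tested probe sets. The list shares count 1 probe set per gene, the tested one with the highest mean, and the others count every tested probe set. A share of all genes with 1 probe set each was not computed, so these units are unlike. With CDP870 against 0 h 0 of 97 entries passed at either time. Of the calls named below, 4 of 13 at 6 h and 8 of 15 at 24 h against 0 h, and 6 of 14 and 10 of 18 between the agents, held with each of the 15 arrays left out in turn. The spike-in covariate kept 2, 9, 4 and 14 of them, in that order. The fits of only the arrays compared kept 7, 2, 14 and 4. The fit without control replicate 3 and infliximab 24 h replicates 5 and 6 leaves only replicate 7 in the infliximab 24 h group, so calls kept in it are not counted. The members' partners and relatives are given below with the count that rose and fell and with the median, where the median of all tested was -0.04 and -0.02 against 0 h at 6 and 24 h and -0.03 and 0 between the agents.

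Among 10 other AP-1 family genes 2 rose and 1 fell at 6 h (median 0), 2 rose at 24 h (median 0.17), and 3 were higher than with CDP870 at each time. FOSL2, a FOS relative without its transactivation domain, rose by 0.54 and 0.66 at 6 and 24 h (limma adjusted p = 0.0194 and 0.00729), and BATF3, a factor of dendritic cell development, by 0.41 and 0.54 (adjusted p = 0.0241 and 0.00621). BATF, which competes with FOS for JUN partners, fell by 0.45 at 6 h (adjusted p = 0.045), a call that held in 5 of 15 omissions (differences of -0.56 to -0.31, adjusted p up to 0.167). Among the small MAF genes, MAFG was higher than with CDP870 at 6 h (0.35) and MAFF at 24 h (0.54), with adjusted p of 0.0347 and 0.0433.

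In the list of 8 tested EGR and AP-1 corepressors and partners 3 rose at 6 h and 2 at 24 h (medians 0.38 and 0.17), and 3 and 2 were higher than with CDP870. JDP2, a JUN dimerisation partner that represses AP-1 sites, rose by 1.56 ± 0.14 (SE) and 1.67 ± 0.14 (2.96- and 3.18-fold, limma adjusted p = 9.19e-06 and 3.94e-06), more than any of the 10 members, and was 3.47- and 3.39-fold above CDP870. ATF4, the main transcription factor of the integrated stress response and a possible dimer partner of AP-1 proteins, rose by 0.87 and 0.88 (adjusted p = 1.7e-05 and 1.2e-05). The coactivator gene CREBBP rose by 0.37 at 6 h (adjusted p = 0.0441), a call that also held in 5 of 15 (0.26 to 0.44, adjusted p up to 0.168).

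Of 12 tested genes among the other immediate early and primary response genes 1 rose at each time against 0 h (medians 0.1 and 0.2) and 3 were higher than with CDP870 at each time (0.05 and 0.23). IER3, an early gene that dampens apoptosis, rose by 0.53 at both times (limma adjusted p = 0.0344 and 0.0425, held in 11 and 5 of 15 omissions) and was higher than with CDP870 by 0.85 and 0.81. IER5 was higher than with CDP870 by 0.53 and 0.47 and the stress gene GADD45B by 0.33 and 0.41. Of the 12 other dual specificity phosphatases 0 passed at 6 h, with DUSP23 at -0.28 and DUSP9 at -0.29, and DUSP5, a nuclear ERK phosphatase, was the 1 that rose at 24 h (0.49, adjusted p = 0.0302) and the 1 higher than with CDP870 then (0.52). At 6 h between the agents DUSP9 stood at -0.45 and DUSP1 at -0.23, neither past the test (adjusted p = 0.116 and 0.198).

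Some of the other Kruppel-like factors were higher with infliximab too. Of 11 tested 2 rose at 6 h and 3 at 24 h (medians 0.3 and 0.37), and 2 and 4 were higher than with CDP870 (0.18 and 0.44). KLF10, a factor induced by TGF-beta, rose by 0.93 and 0.75 (limma adjusted p = 0.00403 and 0.0153) and KLF9, a glucocorticoid target, by 0.87 and 0.89 (adjusted p = 0.0263 and 0.0275). KLF7 rose by 0.41 at 24 h (adjusted p = 0.0264) and was higher than with CDP870 by 0.64 (adjusted p = 0.00155). Between the agents KLF5 was higher at 6 h (0.69) and KLF15 and KLF13 at 24 h (0.55 and 0.46).

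In the ERK cascade and its output few genes were called at 6 h, in both directions, and those called at 24 h rose. Of all tested probe sets 4.02% were called higher and 4.4% lower at 6 h. Of 10 cascade genes 1 rose and 1 fell at 6 h and 2 rose at 24 h (medians -0.01 and 0.13): SOS2, a RAS exchange factor, rose by 0.76 and 0.89 (limma adjusted p = 0.0174 and 0.0081), HRAS fell by 0.49 at 6 h (adjusted p = 0.0184), and the scaffold gene KSR1 rose by 0.64 at 24 h (adjusted p = 0.0101). Of 13 output and feedback genes 2 rose and 1 fell at 6 h and 4 rose at 24 h (medians 0.06 and 0.18). SPRY2, a feedback inhibitor of RAS signalling, rose by 0.48 and 0.4 (adjusted p = 0.0111 and 0.0309), while its relative SPRY4 fell by 0.41 at 6 h (adjusted p = 0.0466), a call that held in 6 of 15 omissions (-0.27 without control replicate 3, adjusted p = 0.165). ETV5, an ERK-induced ETS factor, rose by 0.68 at 24 h (adjusted p = 0.00333), and CCND1, the cyclin D1 gene, by 0.71 (adjusted p = 0.0375, held in 6 of 15 omissions), and the fourth was IER3. Between the agents 3 of the 13 were higher and 1 lower at 6 h and 3 higher at 24 h, with CCND1 2.05-fold above CDP870 at 24 h.

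Other routes to these promoters run through further kinases and through the factors bound there. Of 11 genes of the JNK, p38 and ERK5 kinases 0 passed at 6 h (median -0.17, with MAPK7 at -0.36 and MAP2K6 at -0.31) and 1 rose at 24 h, MAP2K5, the ERK5 kinase (0.55, limma adjusted p = 0.0499), a call that held in 1 of 15 omissions (0.38 to 0.76, adjusted p up to 0.177). Between the agents 0 passed at 6 h (MAP3K1 at -0.37 and MAPK9 at 0.2) and MAP2K5 and MAPK13 were higher at 24 h (0.6 and 0.51). Of the 10 tested SRF, TCF and MEF2 factors 0 passed in these 4 comparisons, with medians of 0.02, 0.08, -0.13 and 0.13. Their nearest to a call were FLI1 at 6 h (0.78, adjusted p = 0.0633) and MEF2C (0.4 against 0 h and 0.44 against CDP870 at 6 h, adjusted p = 0.0941 and 0.064). Transcript levels of these kinases and factors say nothing of their phosphorylation, which was not measured.

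**Figure D4:**
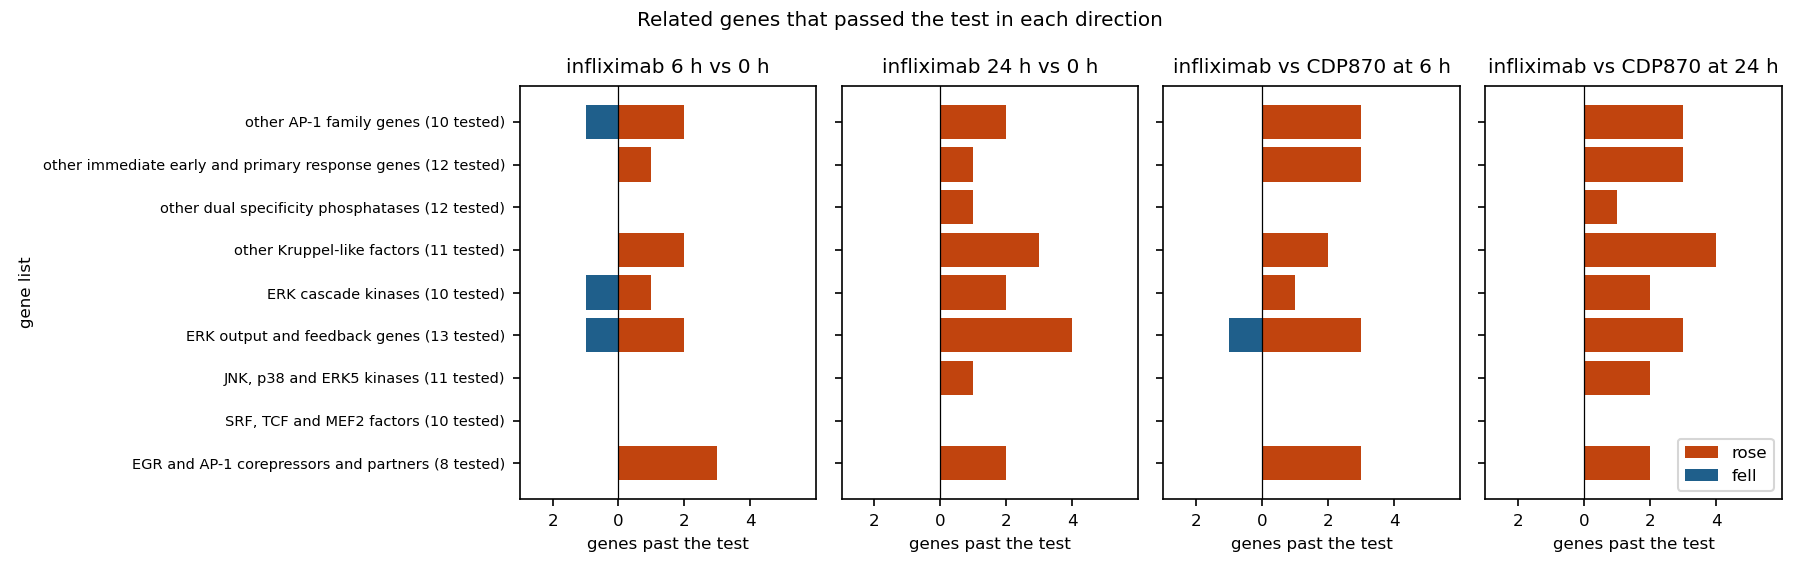
Number of genes (x axis) that rose (right of 0) or fell (left of 0) past a limma adjusted p under 0.05 in 9 lists of related genes (y axis, with the number tested), in 4 panels for infliximab against 0 h and against CDP870. The SRF, TCF and MEF2 list has no bar in any panel, and other Kruppel-like factors reach 4 at 24 h between the agents.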

How the data were processed

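The values of 15 Affymetrix arrays were used as the authors deposited them, on a log2 scale. The submitters' processing notes list GCOS 1.3.0 and GCRMA without saying what each did, and the protocols mention cRNA carrying biotin. The sources used here give neither the settings for background and normalization nor a genome build. The arrays have 54675 probe sets, of which 62 are controls. Of the other 54613, 41091 had 1 gene symbol in the platform annotation, 1801 several and 11721 none, and 41037 were matched by Entrez number to RefSeq names. Groups came from the sample labels. The design text speaks of biological replicates but nothing names separate cultures, so the p-values rest on the spread among these samples, which may be technical.

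A probe set was tested if it lay above its array's median on at least 3 of 15 arrays (28897 probe sets of 13607 genes). The fit (limma 3.58.1, R 4.3.3) took a mean for each group over all 15 arrays, with two-sided tests in 10 comparisons, Benjamini-Hochberg adjustment over all tested probe sets of a comparison and a call at an adjusted p under 0.05. Errors are standard errors of the fit. The fit was tested on simulated data. Plots and tables used Python 3.11.15 and matplotlib 3.10.9. Where 1 probe set stands for a gene it is the tested one with the highest mean. From 9 lists of related genes the text names up to 3 called genes with the smallest p per comparison, or 2 as values where none passed, and for members called over the 5 groups the 3 genes with the highest Pearson correlation over the arrays. The members and lists were chosen with earlier results of these data known. Alternatives were a further quantile normalization, median centring, other filters, fits of only the groups compared, array weights, the spike-in level as a covariate, gene means and omissions of arrays.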

Additional observations from a re-analysis of the deposited data

Results flagged for a closer look

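In 3 genes the arrays of the agents lay on opposite sides of the untreated arrays. The difference between the agents passed the limma test in each. This rule was applied to members only, and its share over all tested probe sets was not computed. Of all tested probe sets, 12.4% at 6 h and 8.67% at 24 h lay above every control array with infliximab. With CDP870, 6.05% and 7% lay below every control array, while 0% were called. In a shift from 0 h the agent and the time in culture cannot be told apart. IER2 lay above every control array with infliximab and below every control array with CDP870 at both times, with a log2 difference between the agents of 0.54 at 6 h and 0.68 at 24 h. KLF2 did so at 6 h, with a difference of 1.12, and KLF6 did so on 1555832_s_at at 24 h, with a difference of 0.7. Against 0 h the CDP870 side passed in none of these, and the infliximab side did not pass for IER2 at 6 h (0.29, limma adjusted p = 0.0665) or for KLF6 1555832_s_at at 24 h (0.51, adjusted p = 0.084). With 3 arrays in each group, no search for single outlying arrays was made.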

How the results depend on the processing

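No paired analysis was possible because the replicate numbers run on from one group to the next and no number is shared. The fit without control replicate 3 and infliximab 24 h replicates 5 and 6 together leaves only replicate 7 in the infliximab 24 h group. Its calls are not counted here, and its differences at 24 h are values of that array. Of 35 member calls in the 4 comparisons of infliximab with 0 h or CDP870, 32 held after a further quantile normalization, 32 with median centring and 33 with array weights. With no filter 26 held, with the spike-in covariate 22, and with only the groups compared 19. No called member changed direction. The causes of these changes were not tested.

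Counts of all called probe sets moved by over 1.5 times as follows, with the fit without those 3 arrays left aside. Infliximab at 6 h against 0 h (2432) gave 4588 with array weights, 181 with the spike-in covariate, 1614 as gene means and 1156 to 3187 with 1 array left out. At 24 h (1899) it gave 200 with only the groups compared, 984 without the 3 arrays together and 1120 to 2620 with 1 left out. CDP870 (0 and 0) gave 11 at 6 h and 2 at 24 h with array weights and 1 at 24 h with the covariate. Between the agents at 6 h (2622) there were 5117 with only the groups compared, 6326 with weights, 751 with the covariate, 1640 as gene means, 5625 without the 3 arrays and 1181 to 3326 with 1 left out. At 24 h (1882) there were 331 with only the groups compared and 1074 to 2891 with 1 left out. Between the times infliximab (0) gave 0 to 2462 with 1 left out, the highest without infliximab 24 h replicate 7. For CDP870 (0) there were 1 with no filter, 280 with weights and 0 to 1 with 1 left out. The interaction (0) gave 0 to 920, the highest again without infliximab 24 h replicate 7. The 5-group test (2726) gave 6014 with weights, 1695 with the covariate, 1801 as gene means and 1738 to 4673 with 1 left out.

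Signs turned only for differences that passed no test. With the covariate JUN 201464_x_at became 0.078 at 6 h, 0.009 at 24 h and 0.089 for infliximab minus CDP870 at 6 h. With 1 array left out it ran from -0.232 to 0.033 and against CDP870 from -0.158 to 0.107 at 6 h, both highest without infliximab 6 h replicate 8, from -0.125 to 0.03 at 24 h, highest without control replicate 2, and from -0.145 to 0.04 against CDP870 at 24 h, highest without CDP870 replicate 13. JUN 201465_s_at ran from -0.17 to 0.04 at 24 h (0.02 without control replicate 3, 0.04 without infliximab replicate 6) and from -0.073 to 0.137 against CDP870 (-0.073 without infliximab replicate 5, -0.015 without CDP870 replicate 12), and was 0 at 24 h without the 3 arrays and -0.027 against CDP870 with weights. EGR1 201693_s_at ran from -0.022 to 0.153 at 6 h, lowest without control replicate 4, from -0.042 to 0.153 against CDP870 at 6 h, lowest without CDP870 replicate 14, and from -0.087 to 0.468 at 24 h, lowest without infliximab replicate 5. Without the 3 arrays it was -0.27 at 24 h and -0.193 against CDP870 at that time. KLF6 211610_at ran from -0.162 to 0.098 at 24 h (0.078 without control replicate 3, 0.098 without infliximab replicate 5) and from -0.102 to 0.073 against CDP870 at 6 h, highest without CDP870 replicate 14. It was 0.093 at 24 h with weights and 0.245 without the 3 arrays, and 0.016 and 0.01 against CDP870 at 6 h with quantile normalization and centring. With the covariate DUSP9 turned to 0.064 at 6 h, and without the 3 arrays MEF2A turned to -0.025 at 24 h and -0.013 against CDP870, and MRTFA to -0.19. Precision is limited by having 3 arrays a group, and low probe sets such as FOSB have only a bound.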
